A study of Mus musculus with 6 samples.

Results

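The 45 genes described here encode proteins of the lysosome and of autophagy, chosen by gene symbol with earlier results of these data known. They were 5 lysosomal proteases, 5 genes of the lysosomal membrane and of lipid export, 7 other hydrolases and activators, 6 subunits and accessory proteins of the V-ATPase, the transcription factors Tfeb and Tfe3, 5 genes of the ATG8 family, 10 other genes of the autophagy machinery and 5 autophagy receptors. All 45 had a row in the deposited table of 24181 genes. RNA was measured by bulk 3'-end sequencing in MC38, a line of mouse colon adenocarcinoma cells kept in culture in DMEM. The labels give MC38 cells that express STING-N153S (3 samples) and parental MC38 cells with the genotype WT (3 samples), and the study compared these groups. The table's 6 remaining columns form 2 sets of 3 named replicates, and since the labels do not tie either set to the 3 STING-N153S samples, those samples are not analysed here. The values below are therefore those of the parental group, with no difference between groups. The deposited plate annotation calls the 3 parental libraries biological replicates, but neither it nor the labels say whether they came from separate cultures, so the spread between them may be technical.

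Lysosomes break down what reaches them by endocytosis and by autophagy, in which a double membrane closes around cytoplasm and then fuses with a lysosome. The lumen is kept acidic by the V-ATPase, a proton pump, and the pump's acid is what most lysosomal hydrolases need to work. The transcription factors TFEB and TFE3 bind E-box sequences in the promoters of many lysosomal and autophagy genes. STING, the adaptor of cytosolic DNA sensing, is itself degraded in lysosomes after activation and can trigger the attachment of ATG8 proteins to membranes.

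Because TFEB and TFE3 read the E-box CACGTG, the promoters of the genes were searched for it, and the windows that hold the longer form TCACGTGA, and those of Ctsl and Lamp1, the 2 most abundant of the 45, are shown. The sequences are RefSeq promoters on GRCm38.p6, from 250 bases before to 50 bases after each annotated start site, and 39 of the 45 genes matched an entry. Capitals mark the E-box or its longer form, each window is written 5′ to 3′ on the gene's strand, and each stops before the start site of its RefSeq entry. For Ctsl, Ctsa and Atp6v1a that site lies downstream of the outermost start of the gene, so their 3 windows lie inside the annotated gene.
Lamp1, chr8:13159080-13159160, plus strand: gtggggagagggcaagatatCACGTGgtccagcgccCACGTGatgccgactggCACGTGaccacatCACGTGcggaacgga
Ctsl, chr13:64370740-64370767, minus strand: gcgttagaagcCACGTGctgatctaaat
Mcoln1, chr8:3500428-3500500, plus strand: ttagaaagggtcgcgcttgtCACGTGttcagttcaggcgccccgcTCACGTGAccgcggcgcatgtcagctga
Ctsa, chr2:164833749-164833772, plus strand: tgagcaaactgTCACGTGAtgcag
Ctsd, chr7:142387899-142388077, minus strand: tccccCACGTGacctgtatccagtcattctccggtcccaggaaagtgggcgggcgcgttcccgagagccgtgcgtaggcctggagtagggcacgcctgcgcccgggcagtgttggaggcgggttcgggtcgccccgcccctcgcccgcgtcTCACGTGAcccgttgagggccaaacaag
Atp6v1a, chr16:44139373-44139402, minus strand: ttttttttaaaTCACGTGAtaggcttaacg
Atg3, chr16:45158715-45158784, plus strand: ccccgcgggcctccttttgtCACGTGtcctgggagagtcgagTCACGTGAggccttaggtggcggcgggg

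The Lamp1 promoter held 4 E-boxes, which began between 61 and 15 bases before the start site. The single E-box of Ctsl began 236 bases before the start site of its entry, downstream of the gene's outermost start. The letters CACGTG, which read the same on both strands, occurred in the promoters of 12 of the 39 genes (30.8%), against 2187 of all 27025 genes with an entry (8.09%) and 1047 of the 8608 among them with a mean of at least 1 CPM (12.2%). Of the 39 genes, 38 had such a mean, the 12 with the letters among them. The 12 were Lamp1, Ctsl, Ctsd, Ctsa, Mcoln1, Gaa, Glb1, Atp6v1a, Atp6v0d1, Atg3, Atg5 and Atg7, of which 9 belong to the 21 lysosome and V-ATPase genes with an entry. The 8 letters TCACGTGA, which contain the E-box, were found in 6 of the 39 genes (15.4%), against 211 of the 8608 genes (2.45%), and the sixth, Atp6v0d1, carried them across its start site. The full palindrome known as CLEAR, which is 1 letter longer at each end, was in none of the 39 entries and in 78 of the 8608 genes (0.906%). Genes with an E-box had a median level of 64.4 CPM, and those with an entry and none had 50.9 CPM. The first ran from 11.2 CPM in Gaa to 889.9 CPM in Ctsl, and the second from 0.436 CPM in Atg9a to 263 CPM in Sqstm1. A difference in level between them was not tested. A match of letters is a description of these windows and does not show that a factor bound there.

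The parental libraries held 3210024 to 4020023 counts, and 16224 to 16892 genes had at least 1 count in each. Levels are CPM, the count of a gene scaled to a common library total (counts per 1e6). A gene is said to reach a level where its mean over the 3 libraries does. A read in this method comes from the end of a transcript, so counts were not divided by gene length and levels of different genes were compared as counts per transcript end. A count of 3, taken as the floor of detection, was 0.893, 0.746 and 0.935 CPM in replicates 1 to 3. Of 10 intestinal epithelial markers listed, 4 had a row, and these were at or near 0, with a summed level of at most 0.595 CPM in any library. Those without a row, Epcam and Cdh1 among them, gave no value. Myeloid cells are rich in lysosomes. Of 12 of their markers listed, 8 had a row. Of these 8, 1 reached 1 CPM, Cd14, with 22.6, 21.1 and 22.4 CPM, while Csf1r and Lyz2 had 0 counts. The summed level of the myeloid markers was 22.9 to 24.0 CPM. Of 8 fibroblast markers listed, 7 had a row, with a summed level of 173 to 197 CPM. Of these, 4 reached 1 CPM, with Col3a1 at 115 ± 8.80 CPM, Dcn at 52.1 ± 5.48 CPM and Pdgfra at 12.8 ± 2.69 CPM (SD, n = 3). Of 6 endothelial markers listed, 5 had a row, and of these Egfl7 reached 1 CPM, with 6.73 ± 0.381 CPM (SD, n = 3). Of 10 lymphocyte markers listed, 4 had a row and none reached 1 CPM.

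The 45 lysosome and autophagy genes were counted widely in parental MC38 cells. Of 45, 44 had a mean of at least 1 CPM, beside 49.5% of all genes in the table. At least 10 CPM was reached by 38 (all genes 31.2%), and at least 100 CPM by 16 (all genes 8.54%). Of 129 related gene symbols listed outside the 45, 122 had a row, and the shares that follow leave out the rest. Of these 122 genes, 89.3% reached 1 CPM, 54.9% reached 10 CPM and 22.1% reached 100 CPM. Their median was 15.1 CPM. Since the 45 were chosen with earlier results known, their levels do not stand for the whole pathway. Together the 45 genes made up 0.484%, 0.502% and 0.485% of all counts in replicates 1 to 3. Their summed level was 4904 ± 97.7 CPM, and the median gene stood at 61.9 ± 2.22 CPM (SD, n = 3). The 23 lysosome and V-ATPase genes had a median of 92.8 CPM and the 20 autophagy genes a median of 47.2 CPM, each as the median of the genes' means.

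**Figure D1:**
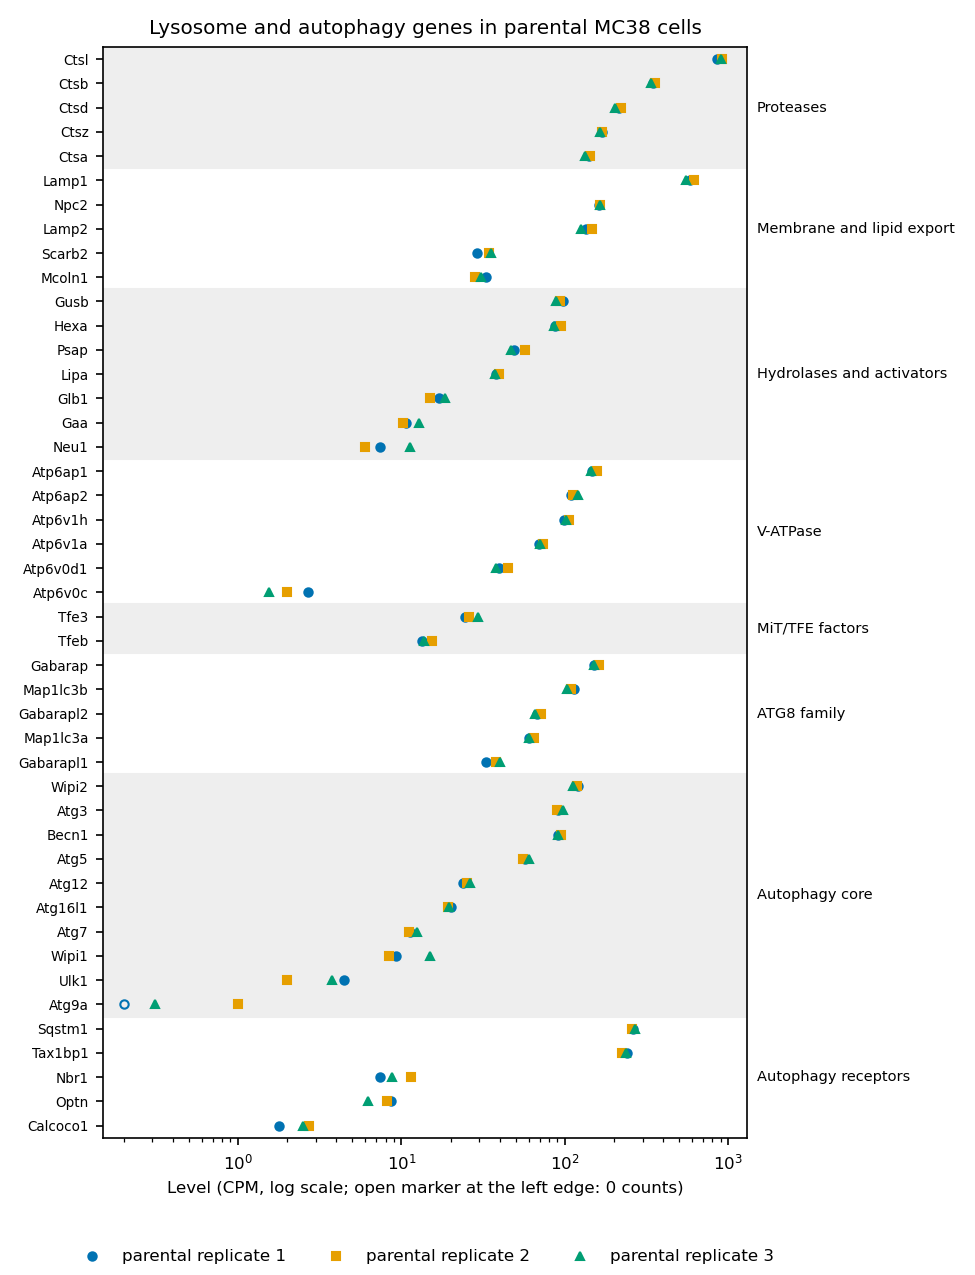
Level of each of the 45 genes in CPM on a log axis, with 1 marker for each of the 3 parental libraries and genes ordered by mean within their family. Ctsl and Lamp1 stand at the right, at 549 CPM or more in every library, and Atg9a at the left, below 1 CPM in every library.

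Of the 8 families of the 45 genes, the lysosomal proteases had the highest summed level. Their 5 genes summed to 1725, 1801 and 1741 CPM in replicates 1 to 3, which was 35.8% of the summed level of all 45 genes. This rank depends on the genes listed. Outside the 45, further proteases summed to 229 CPM, further V-ATPase genes to 1684 CPM and further lysosomal membrane genes to 2842 CPM on average. Ctsl, the cysteine protease cathepsin L (chromosome 13, 64361890 to 64370772, GRCm38), was read 2879, 3658 and 2897 times, which is 857, 909.9 and 902 CPM in replicates 1 to 3 and 889.9 ± 28.6 CPM on average (SD, n = 3). It ranked 154 among all genes of the table. Ctsb, cathepsin B, which cuts both within chains and at their ends, had 347, 357 and 339 CPM and was lower than Ctsl in 3 of 3 libraries. The ratio of Ctsl to Ctsb was 2.56 ± 0.0977 (SD, n = 3), and its exact 95% interval from the pooled counts was 2.46 to 2.66, with counting error as the only error in it. The aspartic protease gene Ctsd followed with 213, 221 and 203 CPM. Ctsz, a carboxypeptidase, had 168, 169.7 and 164 CPM. Ctsa, whose product cuts carboxyl ends and also protects beta-galactosidase and neuraminidase, was the lowest, with 139.9, 143 and 133 CPM. Exons of 16 of the 45 genes overlap exons of another gene, all 5 proteases among them, and their levels are uncertain to the extent that reads were shared. The overlaps come from an earlier GENCODE release than the one used for the counts, and the share over all genes is not given here. The order of the 5 proteases was the same in all 3 libraries, and no library of one gene overlapped with a library of the next.

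Lamp1, which encodes a major glycoprotein of the lysosomal membrane (chromosome 8, 13159161 to 13175338, GRCm38), had 580.2, 614 and 549 CPM and averaged 581 ± 32.5 CPM (SD, n = 3). Its relative Lamp2, which also has a splice form that serves as a receptor in chaperone-mediated autophagy, had 135, 146 and 126 CPM. Counts per gene do not separate the splice forms. The ratio of Lamp1 to Lamp2 was 4.31, 4.204 and 4.36 in replicates 1 to 3, a mean of 4.29 ± 0.0802 (SD, n = 3), with an exact 95% interval of 4.04 to 4.54 over the pooled counts. Both genes were highest in replicate 2 and lowest in replicate 3, and their ratio changed little between libraries. Npc2, whose product takes part in the export of cholesterol from the lumen, had 162, 165 and 163 CPM, the narrowest relative range of the 44 genes tested for variation. Scarb2, the membrane protein that carries beta-glucocerebrosidase to the lysosome, stood at 33.0 ± 3.31 CPM, and Mcoln1, the calcium channel TRPML1, at 30.7 ± 2.35 CPM (SD, n = 3). The libraries of Scarb2 and Mcoln1 overlapped.

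The other hydrolases and their activators were lower than the proteases. All 7 reached 1 CPM, 6 of them reached 10 CPM and none reached 100 CPM. Gusb, beta-glucuronidase, had 97.4, 93.0 and 88.2 CPM, and Hexa, the alpha subunit of beta-hexosaminidase, had 86.9, 94.3 and 86.3 CPM. These did not differ beyond their spread: Gusb was higher in 2 of 3 libraries, and the interval of their pooled ratio, 0.948 to 1.14, included 1. Psap, the precursor of the saposins that present lipids to hydrolases, had 50.9 ± 5.29 CPM, and Lipa, lysosomal acid lipase, 38.4 ± 1.24 CPM (SD, n = 3). Glb1, the beta-galactosidase gene, had 16.8 ± 1.74 CPM, and Gaa, acid alpha-glucosidase, 11.2 ± 1.36 CPM (SD, n = 3). Neu1, lysosomal neuraminidase, was the lowest, with 25, 24 and 36 counts, or 7.44, 5.97 and 11.2 CPM. Replicate 3 stood above both others in Neu1. The products of Ctsa, Glb1 and Neu1 act in 1 complex, and their levels differed widely, with Ctsa above Glb1 and Glb1 above Neu1 in each library.

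**Figure D2:**
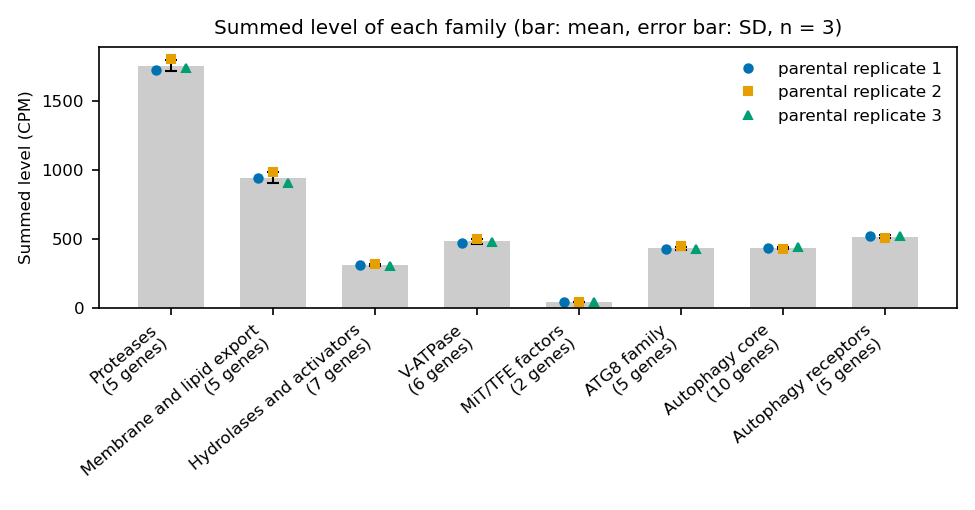
Summed level of each of the 8 families in CPM on a linear axis, with bars for the mean, error bars for the SD and 1 marker for each of the 3 parental libraries. The proteases sum to 1725 to 1801 CPM and the transcription factors Tfeb and Tfe3 to 37.8 to 43.3 CPM.

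Of the 6 V-ATPase genes among the 45, the accessory proteins stood highest. Atp6ap1, an accessory protein needed for assembly of the pump, had 146, 158 and 145 CPM. Atp6ap2, the accessory protein also known as the prorenin receptor, had 109.6, 111 and 121 CPM, and the ratio of Atp6ap1 to Atp6ap2 was 1.31 ± 0.112 (SD, n = 3). Among the subunits of the soluble V1 sector, which splits ATP, the regulatory subunit Atp6v1h had 102 ± 3.97 CPM and the catalytic subunit Atp6v1a 71.1 ± 2.31 CPM (SD, n = 3). Atp6v0d1, which links the membrane sector V0 to the central stalk, had 40.9 ± 3.68 CPM (SD, n = 3). Atp6v0c, the proteolipid of the V0 ring, had 9, 8 and 5 counts, or 2.68, 1.99 and 1.56 CPM, below the other 5 in every library. The order of the 6 was the same in all 3 libraries. The RefSeq and GENCODE names hold 2 pseudogenes of Atp6v0c, of which Atp6v0c-ps1 has a row with 0 parental counts. The sources used here do not say how reads that match several genes were counted, so the level of Atp6v0c is uncertain, and the part of such copies in it was not tested.

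Of 17 further V-ATPase gene symbols listed, 13 had a row, and 11 of them reached 10 CPM. The proteolipid Atp6v0b had 569.5, 509 and 520 CPM, above every member of the family listed above in each library, and Atp6v0e had 320.2 ± 14.6 CPM (SD, n = 3). The V1 subunits Atp6v1c1, Atp6v1d, Atp6v1e1, Atp6v1f and Atp6v1g1 had means between 113 and 159 CPM, and Atp6v1b2, the partner of Atp6v1a in the catalytic ring, had 45.8 ± 2.20 CPM (SD, n = 3). The V0 subunit a has several forms. Tcirg1, the form best known from osteoclasts, stood at 38.6 ± 6.11 CPM, Atp6v0a2 at 27.1 ± 4.99 CPM and Atp6v0a1 at 11.02 ± 1.57 CPM (SD, n = 3). Atp6v1c2 and Atp6v1g2, forms known from specialised tissues, were under 1 CPM on average.

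The transcription factors of the pathway were modest in level. Tfe3 had 82, 104 and 95 counts, or 24.4, 25.9 and 29.6 CPM. Tfeb (chromosome 17, 47737037 to 47792416, GRCm38) was lower, at 13.4, 15.4 and 13.7 CPM from 45, 62 and 44 counts. Tfe3 was the higher in each library, and the ratio of Tfe3 to Tfeb was 1.89 ± 0.247 (SD, n = 3), with an exact 95% interval of 1.52 to 2.28 over the pooled counts. Of their relatives, Mitf had 1.18 ± 0.763 CPM (SD, n = 3) and Tfec 0 counts, a result that leaves room for a level of up to 0.283 CPM over the pooled libraries. The activity of these factors is set largely by phosphorylation and movement to the nucleus, which an RNA count does not read.

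All 5 ATG8 family genes, whose products are attached to the lipid of the autophagosome membrane, reached 10 CPM. Gabarap (chromosome 11, 69991370 to 69994949, GRCm38) had 151, 161 and 152 CPM. Map1lc3b, which encodes LC3B, the protein most used to follow autophagy, had 113, 108 and 103 CPM. The ratio of Gabarap to Map1lc3b was 1.43 ± 0.0851 (SD, n = 3), with an interval of 1.33 to 1.54. Gabarapl2, known as GATE-16, had 67.3, 71.4 and 66.04 CPM, and Map1lc3a, the LC3A gene, had 60.4, 64.4 and 60.7 CPM. Gabarapl1 was the lowest, with 32.7, 38.1 and 39.9 CPM. The order was Gabarap, Map1lc3b, Gabarapl2, Map1lc3a and Gabarapl1 in each of the 3 libraries, and none of these neighbours overlapped. Map1lc3b exceeded Map1lc3a by a ratio of 1.75 ± 0.104, and Gabarapl2 exceeded Gabarapl1 by 1.86 ± 0.199 (SD, n = 3). A pseudogene named after Gabarapl2 is in the annotation and has no row in the table, so how reads shared with it were treated is not known.

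The machinery that attaches ATG8 proteins spanned a wide range. Atg3, the E2-like enzyme that transfers them to lipid, had 91.4, 89.1 and 98.1 CPM. Atg7, the E1-like enzyme that activates both ATG8 proteins and Atg12, had 38, 45 and 40 counts, or 11.3, 11.2 and 12.5 CPM. Atg5, which is joined to Atg12 to form the E3-like part, had 57.6 ± 2.56 CPM, Atg12 25.2 ± 1.34 CPM and their partner Atg16l1 19.8 ± 0.436 CPM (SD, n = 3). Within each library Atg5 was above Atg12 and Atg12 above Atg16l1. Atg10, the E2-like enzyme for Atg12, had 5.87 ± 2.35 CPM, and Atg4b, a protease that trims ATG8 proteins, 53.7 ± 2.06 CPM (SD, n = 3).

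Among genes that start an autophagosome, Becn1, the Beclin 1 gene of the lipid kinase complex, had 91.4, 95.3 and 90.3 CPM. The partners of Beclin 1 do not all share 1 complex. Of their genes, the catalytic subunit gene Pik3c3 had 7.87 ± 2.02 CPM, Pik3r4 2.01 ± 0.607 CPM, Atg14 5.38 ± 0.0896 CPM and Uvrag 34.1 ± 2.72 CPM (SD, n = 3). Becn1 stood above these 4 in every library. Ulk1, the kinase that receives the starvation signal, had 15, 8 and 12 counts, or 4.47, 1.99 and 3.74 CPM. Ulk2 had 5.43 ± 1.75 CPM, Atg13 4.28 ± 1.02 CPM, Rb1cc1 15.5 ± 0.851 CPM and Atg101 39.2 ± 3.99 CPM (SD, n = 3). Ulk1 was lowest in replicate 2. Its values overlapped with those of Ulk2, but Ulk2, with 20, 14 and 22 counts, was the higher in each library.

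Wipi2, which binds the lipid made by the lipid kinase complex and recruits Atg16l1, had the highest mean of the 10 core machinery genes among the 45, with 120.3, 119 and 112 CPM. Its ratio to Atg3 was 1.26 ± 0.106 (SD, n = 3). The related Wipi1 had 31, 34 and 48 counts, or 9.23, 8.46 and 14.95 CPM, with replicate 3 above both others. Atg9a, the lipid scramblase of Atg9 vesicles, had 0, 4 and 1 counts, or 0, 0.995 and 0.312 CPM. Exons of Atg9a overlap exons of Ankzf1 on the opposite strand, which had 216 counts over the 3 libraries, and whether counting used the strand is not given, so the level of Atg9a is uncertain. The part of this overlap in its low count was not tested. The 28 further genes of the core machinery with a row all reached 1 CPM, and 13 of them reached 10 CPM. The highest was the late endosome GTPase gene Rab7, with 207, 214 and 213 CPM, and the lowest was Plekhm1, with 1.56 ± 1.00 CPM (SD, n = 3).

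**Figure D3:**
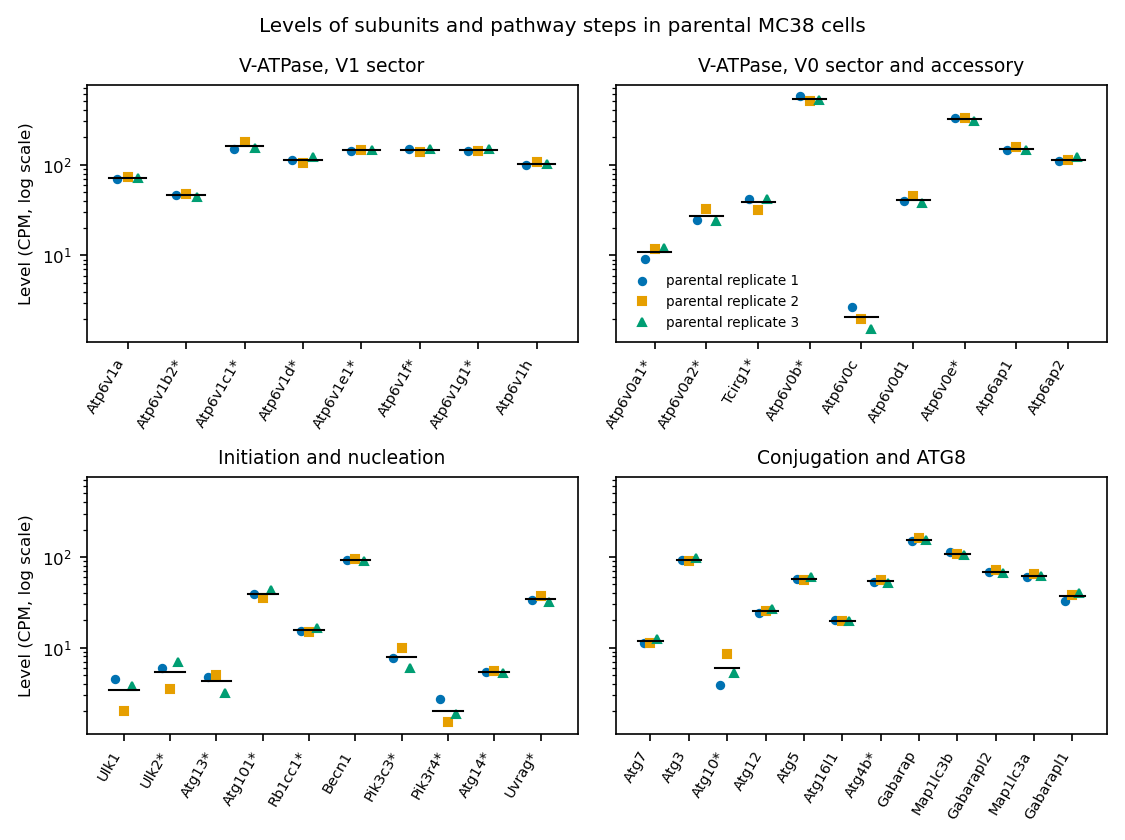
Levels in CPM on a log axis of V-ATPase subunits (upper panels) and of genes for the initiation of autophagy and for ATG8 conjugation (lower panels), with 1 marker for each of the 3 parental libraries, a line for the mean, and an asterisk on genes outside the 45. Atp6v0c lies at 1.56 to 2.68 CPM beside its fellow V0 subunit Atp6v0b at 509 to 569.5 CPM, and Becn1 lies above the other genes of its panel.

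Of the 5 autophagy receptors, which tie cargo to ATG8 proteins, 2 were abundant and 3 were not. Sqstm1, the p62 gene (chromosome 11, 50200152 to 50210820, GRCm38), had 261, 258 and 269 CPM. Tax1bp1, which binds ubiquitin and ATG8 proteins, had 239.7, 224 and 236 CPM, below Sqstm1 in each library, and the ratio of Sqstm1 to Tax1bp1 was 1.13 ± 0.0341 (SD, n = 3). The exact 95% interval of that ratio over the pooled counts was 1.07 to 1.19. Nbr1, a relative of p62, had 7.44, 11.4 and 8.72 CPM, and Optn, the optineurin gene, had 8.63, 8.21 and 6.23 CPM. Their libraries overlapped. Calcoco1, a receptor for the endoplasmic reticulum and the Golgi, had 6, 11 and 8 counts, or 1.79, 2.74 and 2.49 CPM, and its relative Calcoco2 had 1 count in all. Of the 10 further receptor genes, 9 reached 1 CPM, with the highest levels in the prohibitin gene Phb2, with 420.0 ± 20.7 CPM, and the mitophagy receptor Bnip3, with 168 ± 7.95 CPM (SD, n = 3).

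Lysosomal genes outside the 45 were taken from lists of related genes. Of the 26 further hydrolase genes with a row, 23 reached 1 CPM and 2 reached 100 CPM, the progranulin gene Grn, with 142 ± 3.87 CPM, and the acid ceramidase gene Asah1, with 116 ± 6.19 CPM (SD, n = 3). The lowest was Manba, with 2, 0 and 0 counts. Of 9 further proteases listed, 7 had a row and 5 reached 1 CPM. The highest was Scpep1 with 156 ± 5.04 CPM (SD, n = 3), while Ctsk and Ctss, which osteoclasts and antigen-presenting cells are known for, had 1 count each. Of 18 further membrane genes, the tetraspanin gene Cd63 was the highest, with 1974, 1878 and 1852 CPM, above Ctsl and Lamp1 in each library. Sort1, the sortilin gene, had 1 count. A further list held 19 genes of mTORC1, its anchors and its regulators. mTORC1 is the kinase complex that holds TFEB and Ulk1 in check at the lysosome surface. Of the 18 genes with a row, 17 reached 1 CPM. The highest was the GTPase gene Rheb with 285 ± 3.86 CPM, and Rragd was lowest at 0.775 ± 0.241 CPM (SD, n = 3). Mtor itself had 17.5 ± 3.12 CPM (SD, n = 3).

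Ordered by mean, the 45 genes formed 44 pairs of neighbours, of which 25 overlapped between libraries and 19 did not. From Ctsl down through Lamp1, Ctsb, Sqstm1, Tax1bp1 and Ctsd to Ctsz, no neighbours overlapped. Of the 25 overlapping pairs, 9 stood in the same order within each of the 3 libraries. Atg3, Gusb, Becn1 and Hexa, with means between 89.2 and 92.9 CPM, overlapped with their neighbours in this run, and of these pairs Becn1 and Hexa kept 1 order in all 3 libraries, with Becn1 above. Gaa, Wipi1, Nbr1, Neu1 and Optn, with means between 7.69 and 11.2 CPM, also overlapped with their neighbours, and no neighbouring pair of this run kept 1 order in all 3 libraries. Further apart in the run, Gaa was above Neu1 and Optn in each library.

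Variation among the 3 parental libraries was then tested, a comparison of libraries rather than of conditions. A chi-square test of counts against counts expected from the library sizes was run on the 11118 genes whose expected count reached 5 in every library, with Benjamini-Hochberg adjustment over all of them. Of all genes tested, 2.80% varied at an adjusted p below 0.05, which is 311 genes, and without replicate 3 the number was 61. Of the 45 lysosome and autophagy genes, 44 were tested, all but Atg9a, and none varied, with 3 at an unadjusted p below 0.05 (all genes 13.2%). Those 3 were Lamp1, Wipi1 and Neu1, with adjusted p of 0.0874, 0.230 and 0.348 in the chi-square test. Replicate 2 was the highest library in Lamp1, and replicate 3 was the highest in Wipi1 and Neu1. The call for Lamp1 depended on the scaling and on the libraries: its adjusted p was 0.0492 with TMM scaling and 0.0233 without replicate 1. Exact binomial tests between pairs of libraries, with the same adjustment, also called none of the 44.

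The spread of these genes was close to that of counting. The highest library exceeded the lowest by 1.10-fold in the median of the 44 genes and by 1.21-fold in the median of all genes tested. The 44 genes had a median of 230.3 counts per library and all genes tested 78.3, and a low count has more counting error. The chi-square value over its degrees of freedom, which has a median of 0.693 where counting is the only source of spread, had a median of 0.701 in the 44 genes and 0.934 in all genes tested. The range ran from 1.01-fold in Npc2 to 2.27-fold in Ulk1, which had 35 counts in all. By CPM, 22 of the 44 genes were highest in replicate 2, 13 in replicate 3 and 9 in replicate 1. The share over all genes is not given here, so these numbers are not read as a trait of the 44. CPM uses library totals, and the median ratios used in the test were 0.994, 1.006 and 1.000 relative to those totals in replicates 1 to 3. Among related genes outside the 45, 106 were tested and 2 varied, Cd63 (adjusted p = 0.00505) and Atp6v0b (adjusted p = 0.0151 by the chi-square test), both highest in replicate 1.

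**Figure D4:**
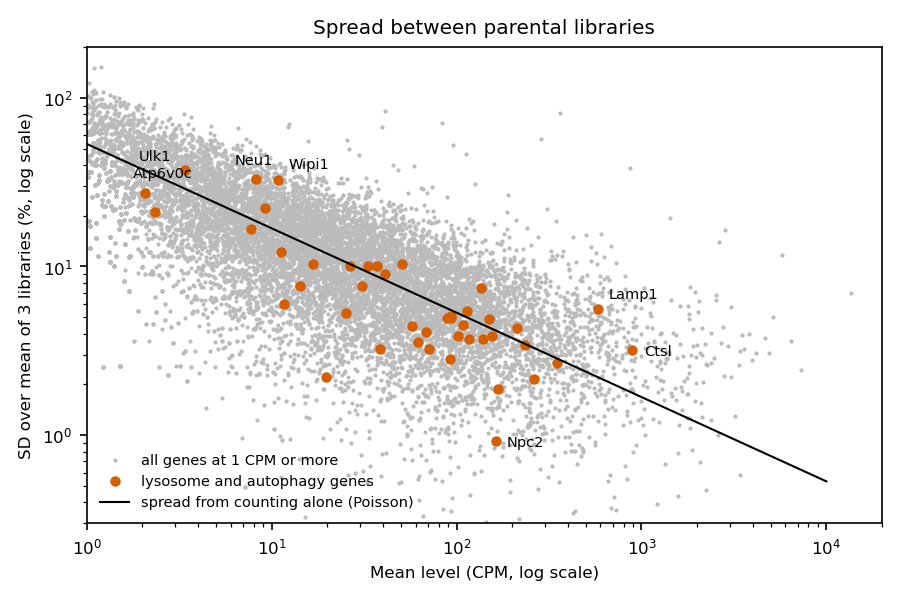
Spread between the 3 parental libraries, as SD over mean in percent on a log axis, against mean level in CPM on a log axis, for all genes at 1 CPM or more (grey) and the 44 lysosome and autophagy genes among them (orange), with a line for the spread that counting alone gives. The orange points lie around the line, with Lamp1, Ctsl, Wipi1 and Neu1 above it and Npc2 below it.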

How the data were processed

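Whole-number counts per gene were deposited. Per the file headers, the authors made these counts on GRCm38 and GENCODE M25 without trimming, using Picard 2.18.26, STAR 2.7.5b and Drop-seq tools 1.12. Libraries carried molecular identifiers, per the labels' protocols. The sources used here do not say whether counts are collapsed by identifier, use the strand or keep reads of several genes, so intervals and floors cover counting error only.

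The deposited plate annotation ties 3 columns to the parental samples by genotype and replicate number. The 6 other columns were not used, so the planned edgeR test of STING-N153S against parental cells was not run. Members and lists were chosen with earlier results of these data known. Full values were given for the 2 highest and the lowest gene of each family, for genes past a test and for ratio pairs. Members described beyond that rule were added to account for each.

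CPM are counts over library totals. The chi-square test scaled libraries by median ratios (false discovery rate 0.05). It was tested on simulated counts, with counting error only and 200 genes changed in 1 library. It recovered 36.0% of 1.5-fold, 66.0% of 2-fold and 82.5% of 4-fold changes. A gene that was not called may therefore still differ between libraries. Intervals are Clopper-Pearson at 95%. Gene positions and promoters are RefSeq's on GRCm38.p6. Exon overlaps are those of a GENCODE release earlier than the M25 of the counts. Tools were Python 3.11.15, scipy 1.17.1, pandas 2.3.3, R 4.3.3, edgeR 4.0.16 (TMM) and DESeq2 1.42.0 (size factors).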

Additional observations from a re-analysis of the deposited data

How the results depend on the processing

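No paired analysis was possible because no STING-N153S column was mapped to pair with a parental one. The alternatives planned for STING-N153S against parental cells were not run for the same reason. The number of the 44 tested lysosome and autophagy genes that varied between parental libraries, 0 by the chi-square test, was 1 with TMM scaling and 0 to 1 with 1 replicate left out. That gene was Lamp1 in both cases (adjusted p = 0.0492, and 0.0233 without replicate 1), and its adjusted p ran from 0.0233 to 0.694 over all alternatives. Over all genes, 311 varied, and 61 to 274 did with 1 replicate left out, the fewest without replicate 3. Other settings gave 274 to 327. When the 20 highest genes were dropped from the library totals, a step that raises every CPM, the summed level was 5402 CPM against 4904 CPM and the median gene 68.1 CPM against 61.9 CPM. The 135 levels of single genes recomputed with other library totals included 101 within 1 SD of the value reported. Of these, 45 came from TMM scaling and 45 from median ratios. Those factors lay between 0.994 and 1.006 relative to the library totals, too close to them to move a mean by much. The 34 beyond 1 SD and the other 11 within it came from the totals without the 20 highest genes. The 101 are therefore no measure of stability. The number of genes at 1 CPM or more was 44 under every setting tried. Leaving out 1 of 3 replicates cannot move a mean by 1 SD, so the means and ratios without a replicate say nothing of stability. Depth limits Atg9a, Atp6v0c, Calcoco1 and Ulk1, which had 5 to 35 counts in all.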
